A study of Mus musculus with 31 samples.

Results

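Guanylate-binding proteins (Gbp) are large GTPases whose genes are switched on by interferon gamma, and Irgm1 belongs to the immunity-related GTPases, another interferon-inducible family. Described here are the 10 genes Gbp2, Gbp2b, Gbp3, Gbp4, Gbp5, Gbp6, Gbp7, Gbp8, Gbp9 and Irgm1, out of 38406 gene symbols per table. The set was fixed by symbol, with rows in all 31 count tables, and with earlier results of these data known. It holds only Irgm1 of the immunity-related GTPases. The related genes Irgm2, Igtp and Iigp1 are outside the set and are given further below. All 10 passed the filter on low counts at day 5 and at day 13. Gbp10 and Gbp11, the only other symbols in the tables that begin with Gbp, had at most 4.88 CPM (scaled as below) and did not pass it.

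As background, interferon gamma binds its receptor and acts through the kinases Jak1 and Jak2 and through transcription factors. DNA elements known from interferon-inducible promoters are gamma-activated sites (GAS) and interferon-stimulated response elements (ISRE), and Irf1 is a factor that binds the latter. The proteins made in response gather on vacuoles of intracellular parasites and bacteria, help to break them open and feed into the sensing of bacterial products by caspases and inflammasomes. In tumours, macrophages, dendritic cells and other leukocytes that meet interferon gamma express them, and they are often read as a trace of that cytokine.

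The libraries are bulk RNA-seq of leukocytes sorted by CD45.2, a surface protein of all white blood cells, from tumours grown in the mammary fat pad of wildtype female C57BL/6 mice. AT3-OVA, the tumour line, expresses ovalbumin and models triple negative breast cancer. Only the tumour was irradiated, under anaesthesia, and mock groups received the anaesthesia alone. The age of the mice is not given, and RNA had an integrity number above 8.5. Tumours taken on day 5 after the last dose gave 6 libraries for 3x4Gy (3 fractions of 4 Gy) with 4 for the mock schedule 3x0Gy, and 6 libraries for 1x20Gy (1 dose of 20 Gy) with 4 for the mock 1x0Gy. Day 13 has 7 libraries of 1x20Gy and 4 of 1x0Gy, and no 3x4Gy library. The labels do not state that each library came from its own mouse, so the p-values measure the spread between these libraries. Sample codes changed between the days, so day and experiment cannot be told apart, and levels are not compared across them.

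Library totals ran from 2641229 to 7541144 gene counts (median 4259013), and a member had between 9 and 1350 counts per library (median 194). Values below are CPM, counts brought to a common library size with TMM scaling, which corrects for depth and for a few genes that take many counts. The leukocyte genes Ptprc, Coro1a and Laptm5 summed to between 1225 and 3697 CPM in the libraries. Markers of epithelial and tumour cells (10 genes) were also present, with 156 to 2003 CPM in all. In bulk libraries, fewer cells of a type and less RNA per cell cannot be told apart.

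The genes lie in 3 places (GRCm38, GENCODE M21). Gbp5 (chr3:142493978-142522344), Gbp7 (chr3:142530342-142550149), Gbp3 (chr3:142560026-142573209), Gbp2b (chr3:142594847-142619179) and Gbp2 (chr3:142620602-142638008) follow each other on the plus strand of chromosome 3. Gbp8 (chr5:105014150-105139540), Gbp9 (chr5:105077630-105139539), Gbp4 (chr5:105115767-105139586) and Gbp6 (chr5:105270702-105293698) lie on the minus strand of chromosome 5. Irgm1 (chr11:48861968-48871683) lies alone on the minus strand of chromosome 11. Exons of Gbp4, Gbp8 and Gbp9 overlap each other on the same strand, so reads there cannot be told apart by position.

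Near-identical copies bear most on Gbp6. Of the 50-base stretches in its exons, 49.9% also occurred in exons of genes elsewhere, mostly of Gbp10, against 12.9% for Gbp8, 6.54% for Gbp4, 4.25% for Gbp9 and 3.75% for Gbp3. For Gbp7, Gbp2, Gbp2b, Gbp5 and Irgm1 the share was between 0.379% and 2.26%. These shares leave out genes that overlap the member itself. Gbp6 shared 65.0% with the overlapping gene Gm43302, and Gbp7 shared 10.5% with the overlapping pseudogene Gm43802. Both lie on the same strand as the member, and neither symbol is in the count tables. Reads placed in more than 1 position made up 18.6% to 25.5% of the aligned reads and were not counted, so the level of Gbp6 is uncertain. The low level given above for Gbp10, which holds many of the same stretches, is uncertain for the same reason.

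RefSeq (GRCm38.p6) gave a promoter window for 6 of the 10 genes. An ISRE core was taken as 2 copies of GAAA with any 2 bases between them on either strand. In the 250 bases before the start site it was found for all 6 genes, against 2.98% of 32851 promoters. The 6 genes had 7 windows, and the second one of Gbp3 held neither this core nor a GAS. All 250 bases of the Irgm1 window and the last 61 bases of the Gbp2 window lie in GENCODE exons. The matches of Irgm1 and Gbp2 are thus in annotated transcribed sequence. A GAS, TTCNNNGAA on either strand, was found in Gbp5 and Gbp7, against 7.02% of promoters. Printed are the plus-strand stretches of Gbp2b and Gbp5, the members with the largest called changes, and of Gbp7, which held the same kinds of motif as Gbp5 and was called in no comparison. Capitals mark the matches. They begin at position -137 of Gbp2b (ISRE), at -245 and -52 (GAS) and -165 (ISRE) of Gbp5, and at -106 and -87 (GAS) and -53 (ISRE) of Gbp7, counted back from the start site.
Gbp2b (chr3:142594597-142594846): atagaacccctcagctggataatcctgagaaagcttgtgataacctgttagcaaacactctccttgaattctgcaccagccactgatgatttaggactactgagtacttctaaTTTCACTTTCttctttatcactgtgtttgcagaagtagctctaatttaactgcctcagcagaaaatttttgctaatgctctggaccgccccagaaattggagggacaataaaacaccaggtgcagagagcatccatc
Gbp5 (chr3:142496684-142496899): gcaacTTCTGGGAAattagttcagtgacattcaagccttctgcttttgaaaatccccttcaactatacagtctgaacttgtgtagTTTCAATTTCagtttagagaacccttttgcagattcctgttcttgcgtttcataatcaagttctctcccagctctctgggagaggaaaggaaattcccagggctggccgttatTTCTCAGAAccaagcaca
Gbp7 (chr3:142530086-142530335): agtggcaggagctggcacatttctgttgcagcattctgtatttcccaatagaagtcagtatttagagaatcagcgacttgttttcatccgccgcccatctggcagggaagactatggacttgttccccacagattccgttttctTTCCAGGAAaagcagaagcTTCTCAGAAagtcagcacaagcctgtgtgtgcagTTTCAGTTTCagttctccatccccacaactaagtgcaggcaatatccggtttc
The Gbp5 window, set by the RefSeq start site, lies inside the GENCODE span of the gene given above. Its printed stretch stops where a GENCODE exon begins in that window. A match describes the letters and does not show that a factor was bound.

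After 3x4Gy, Gbp2b, Gbp5 and Gbp8 rose over the mock group, by 5.05-fold, 2.40-fold and 1.59-fold. None of the 10 genes fell. Of all 12021 genes tested by edgeR at an adjusted p below 0.05, 5.2% were called higher. Upper quartile scaling in place of TMM moved the calls over all genes from 625 higher and 852 lower to 450 higher and 1110 lower. The log2 fold change was above 0 for all 10 members, with a median of 0.40, against -0.0039 over all genes, of which 49.5% were above 0. The members were chosen with earlier results of these data known and varied together within groups, so this is a description. In Gbp2b and Gbp5 every irradiated library lay above every mock library, which held for 3.92% of all genes.

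Gbp2b, the gene earlier called Gbp1 in the mouse, which acts against intracellular parasites, had its lowest group mean in 3x0Gy, at 4.63 CPM. It had 3.13, 4.42, 6.49 and 4.49 CPM in the 4 mock libraries of 3x0Gy and between 10.5 and 49.2 CPM (median 22.2) in the 6 libraries after 3x4Gy. The groups did not overlap, and library 6 stood highest. Means were 24.3 ± 14.3 CPM (SD, n = 6) and 4.63 ± 1.39 CPM (n = 4), with a log2 fold change of 2.34 (SE 0.49, edgeR adjusted p = 0.00293). Leaving out any 1 library kept the call, with log2 fold changes between 2.00 and 2.56.

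Gbp5, known for its part in activating the NLRP3 inflammasome, had 19.1, 39.1, 32.1 and 38.0 CPM in the mock libraries. After 3x4Gy it ran from 42.4 to 145.9 CPM (median 72.6). The lowest irradiated library was thus just above the highest mock library, and library 6 was again the highest. The log2 fold change was 1.26 (SE 0.28, edgeR adjusted p = 0.00515), from 32.1 ± 9.2 CPM (n = 4) to 77.7 ± 36.9 CPM (n = 6), and every set with 1 library left out kept the call.

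Gbp8, a chromosome 5 member, had 38.3, 29.9, 35.9 and 39.7 CPM in the mock libraries and between 32.3 and 86.7 CPM (median 54.8) after 3x4Gy. Here 5 of 6 irradiated libraries lay above all 4 mock libraries and library 1 lay among them. The log2 fold change was 0.67 (SE 0.20, edgeR adjusted p = 0.0322). This call was lost without any 1 of 6 libraries, the irradiated libraries 4, 5 and 6 and the mock libraries 1, 2 and 3, with adjusted p between 0.0545 and 0.0855. It was also lost when only the 2 groups compared entered the fit (log2 fold change 0.65, adjusted p = 0.131).

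The other 7 members did not pass the test after 3x4Gy. Gbp6 had the next largest difference, with a log2 fold change of 1.13 (SE 0.49, edgeR adjusted p = 0.135). Its mock libraries held 10.8, 4.76, 5.81 and 8.97 CPM, and its irradiated libraries ran from 3.78 to 33.8 CPM (median 15.8), so that 3 lay above all mocks and libraries 2 and 3 near their lower end. Gbp7, Irgm1, Gbp3, Gbp4, Gbp9 and Gbp2 had log2 fold changes between 0.23 and 0.41. Gbp7, which supports the oxidative killing of microbes, went from 164, 165, 146 and 151 CPM in the mocks to between 145.3 and 294 CPM (median 193.5) after 3x4Gy, again with overlap. Irgm1, which regulates other immunity-related GTPases and autophagy, went from between 20.1 and 29.2 CPM to between 18.4 and 47.0 CPM.

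The irradiated libraries differed among themselves in the family as a whole. The mean log2 CPM over the 10 members was 5.03 in 3x4Gy library 2 and 5.26 in library 3, close to the mock libraries at 4.95 to 5.09. It lay between 5.71 and 6.35 in the other 4 libraries. Libraries 2 and 3 also had 24.2% and 23.1% of aligned reads placed in more than 1 position, as the mocks did (22.8% to 24.9%), against 18.6% to 21.4% in the other 4. The part of this measure in the family mean was not tested. Without library 2, edgeR also called Gbp3 (log2 fold change 0.51, adjusted p = 0.0290), Gbp6 (1.38, adjusted p = 0.0393) and Gbp7 (0.52, adjusted p = 0.0491) higher, which made 6 members.

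**Figure D1:**
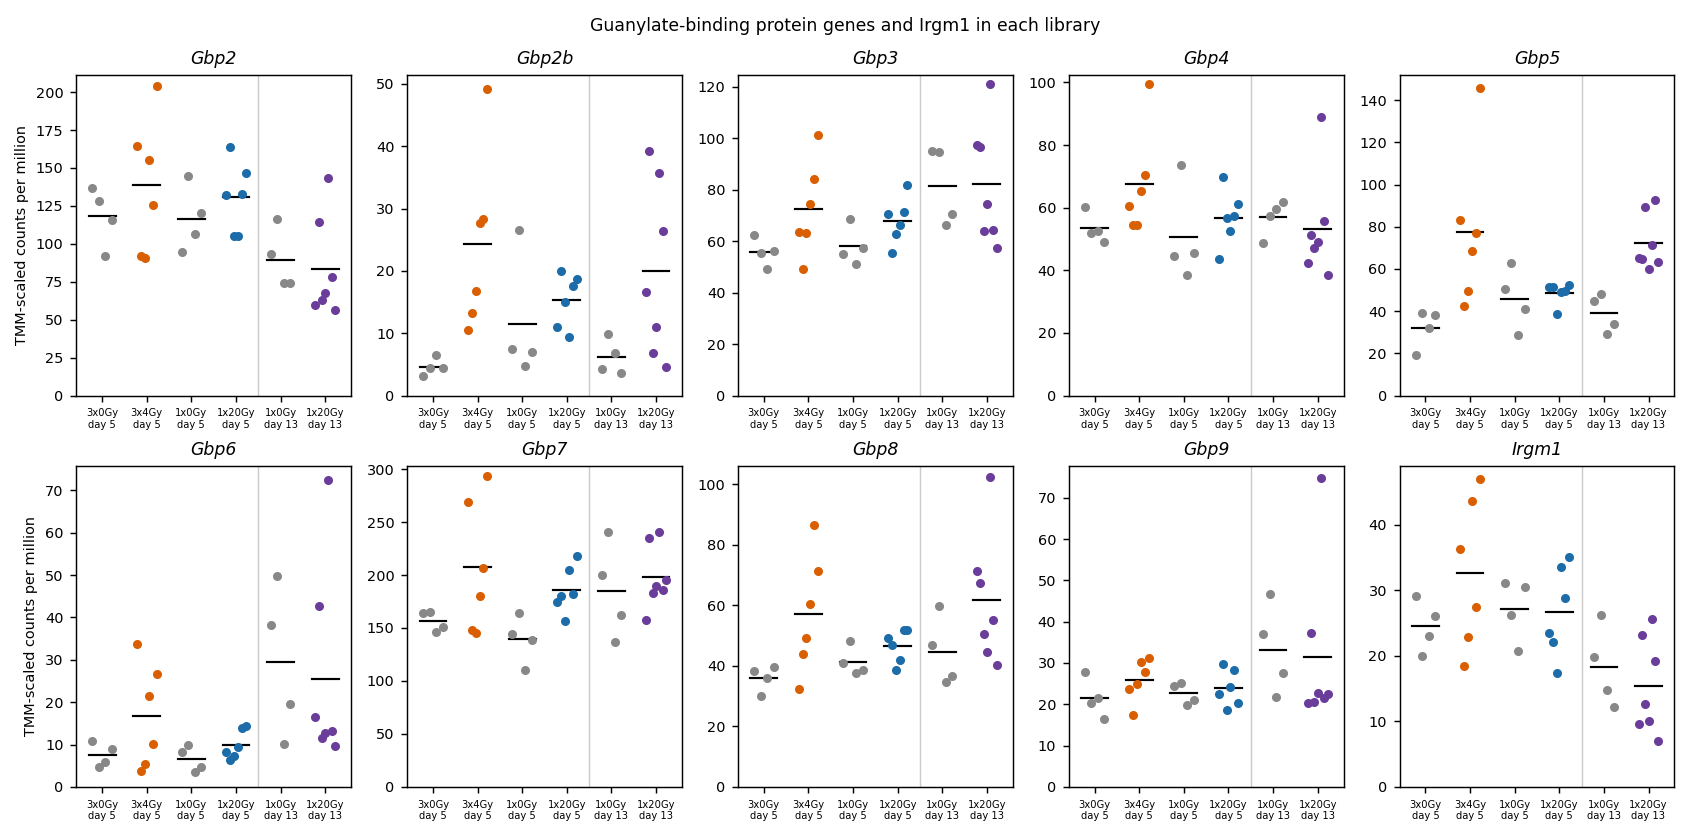
Each point is 1 library, in TMM-scaled CPM on the vertical axis, with the 6 groups side by side for each of the 10 genes; the black bar is the group mean and the grey line separates the days. In Gbp2b and Gbp5 the 3x4Gy libraries lie above all 3x0Gy libraries, and in Gbp5 at day 13 the 1x20Gy libraries (60.2 to 92.7) lie above all 1x0Gy libraries (29.4 to 48.1).

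Markers of other cells differed between the same groups. Fibroblast markers (8 genes) summed to 16.2 to 49.0 CPM after 3x4Gy and to 91.4 to 209 CPM in the mocks, and 6 of the 6 tested were called lower. Epithelial and tumour markers summed to 167 to 734 CPM after 3x4Gy and 492 to 1125 CPM in the mocks, with 3 of 10 called lower and 0 higher. Monocyte markers (6 genes) summed to 803 to 1434 CPM against 441 to 847 CPM, with Ccr2 called higher and F13a1 called lower. Endothelial markers (6 genes) summed to 121 to 155 CPM against 58.4 to 77.5 CPM, with 2 of 5 tested called higher. Dendritic cell markers (7 genes) summed to 317 to 529 CPM against 203 to 319 CPM, with 2 of 7 called higher, and the 3 leukocyte genes to 2481 to 3697 CPM against 1225 to 2351 CPM. With the mean log2 CPM of the epithelial and fibroblast markers as a covariate, the log2 fold changes were 1.23 for Gbp2b (adjusted p = 0.297), 0.60 for Gbp5 (adjusted p = 0.373) and 0.06 for Gbp8 (adjusted p = 0.917), and no member was called. Reads in no annotated gene also moved with the groups, at 21.1% to 28.1% of uniquely placed reads after 3x4Gy and 5.65% to 21.5% after 3x0Gy, and their part was not tested. Since the fibroblast sums did not overlap between the groups, cell mixture and treatment cannot be told apart in these changes.

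After 1x20Gy no member was called at day 5. Over all 12021 genes 3.6% were called higher, and upper quartile scaling moved these calls from 433 higher and 586 lower to 317 higher and 745 lower. Log2 fold changes of the members ran from -0.03 (Irgm1) to 0.59 (Gbp6), with a median of 0.17 against 0.02 over all genes. By edgeR 1 member, Gbp7, had an unadjusted p below 0.05, and DESeq2 also called 0. No member had all irradiated above all mock libraries, which 5.43% of genes had. Reads in no annotated gene had a median share of 23.0% after 1x20Gy and 16.6% in the mocks. Epithelial and tumour markers summed to 156 to 516 CPM after 1x20Gy and 439 to 640 CPM in the mocks. Of these 10 genes 6 were called lower, as were 2 of 6 tested fibroblast markers. Called higher were 2 of 6 neutrophil, 1 of 6 monocyte, 1 of 7 dendritic cell and 1 of 5 tested endothelial markers. The part of these measures in the levels of this comparison was not tested.

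Gbp7 went from 144, 164, 110.3 and 139 CPM in the mocks to between 157 and 218 CPM (median 181) after 1x20Gy, and 5 of 6 irradiated libraries lay above all mocks. Its log2 fold change was 0.42 (SE 0.18, edgeR adjusted p = 0.159), and it was called when only the 2 groups compared entered the fit (0.41, adjusted p = 0.0473). For Gbp5 the log2 fold change was 0.09 with a 95% interval from -0.44 to 0.62. Its mock libraries spread from 28.8 to 62.8 CPM and enclosed all 6 irradiated libraries, which lay between 38.6 and 52.3 CPM.

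The value of Gbp2b depended on 1 mock library in this comparison. The 1x0Gy libraries held 7.51, 26.6, 4.74 and 6.97 CPM, and the irradiated libraries ran from 9.37 to 20.0 CPM (median 16.3). The irradiated libraries thus lay above mock libraries 1, 3 and 4 and below library 2. With all libraries the log2 fold change was 0.42 (SE 0.43, edgeR adjusted p = 0.618). Without mock library 2 it was 1.25 (SE 0.40, adjusted p = 0.0565).

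At day 13 after 1x20Gy Gbp5 rose, by 1.86-fold, and no member fell. Of 11071 genes tested by edgeR, 4.22% were called higher. Upper quartile scaling moved the calls over all genes from 467 higher and 424 lower to 384 higher and 512 lower. The median log2 fold change of the 10 members was -0.04, against 0.01 over all genes, and 5 of the 10 were above 0. Gbp5 was also the only member with all irradiated above all mock libraries, as 3.31% of genes were.

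Gbp5 had 44.9, 48.1, 29.4 and 33.8 CPM in the 4 mock libraries and between 60.2 and 92.7 CPM (median 65.2) in the 7 irradiated libraries. The groups did not overlap. The log2 fold change was 0.90 (SE 0.17, edgeR adjusted p = 0.00512), and it stayed called without any 1 library, between 0.78 and 1.01. With the epithelial and fibroblast covariate it was 0.82 (adjusted p = 0.0626). Fibroblast markers summed to 13.8 to 33.1 CPM in the irradiated and 40.2 to 78.1 CPM in the mock libraries, with 4 of 6 called lower. Epithelial and tumour markers, also in the covariate, summed to 703 to 2003 CPM against 664 to 909 CPM. Of 9 tested, 2 were called higher and 1 lower, so the covariate joins markers that moved in different directions. Macrophage markers (8 genes) summed to 6633 to 9418 CPM against 9452 to 12424 CPM, with 4 of 8 called lower. Of the neutrophil markers 3 of 5 tested, and of the endothelial markers 2 of 4 tested, were called higher. Reads in no annotated gene had a median share of 26.6% after 1x20Gy and 20.6% in the mocks. The part of these measures in the Gbp5 level was not tested.

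Gbp2b had 4.27, 9.94, 6.87 and 3.68 CPM in the mocks and 4.58 to 39.2 CPM (median 16.5) in the irradiated libraries at day 13. Of these, 5 of 7 lay above all mocks, and libraries 3 and 7 lay among them. The log2 fold change was 1.68 (SE 0.53, edgeR adjusted p = 0.0618). It was called by DESeq2 (1.70, adjusted p = 0.0479), without a filter on low counts (1.66, adjusted p = 0.00567) and without irradiated library 3 (1.83, adjusted p = 0.0409) or library 7 (1.86, adjusted p = 0.0226).

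The remaining 8 members had log2 fold changes between -0.26 (Irgm1) and 0.47 (Gbp8) at day 13, and none passed the test. For each of them the SD within the irradiated group exceeded the difference between the group means. Libraries 2 and 5 stood above the other 5 irradiated libraries in Gbp2, Gbp2b, Gbp6, Gbp7, Gbp9 and Irgm1. In Gbp9, for instance, they had 37.2 and 74.8 CPM against 20.3 to 22.7 CPM in the others, and in Gbp6 42.8 and 72.4 CPM against 9.64 to 16.5 CPM. The mock libraries were also spread, with Gbp6 at 38.1, 49.7, 10.2 and 19.5 CPM. Gbp5 did not follow this order, with libraries 2 and 5 at 64.7 and 71.1 CPM and its highest values in libraries 3 and 6. Its log2 fold change was 0.92 without library 2 and 0.90 without library 5.

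**Figure D2:**
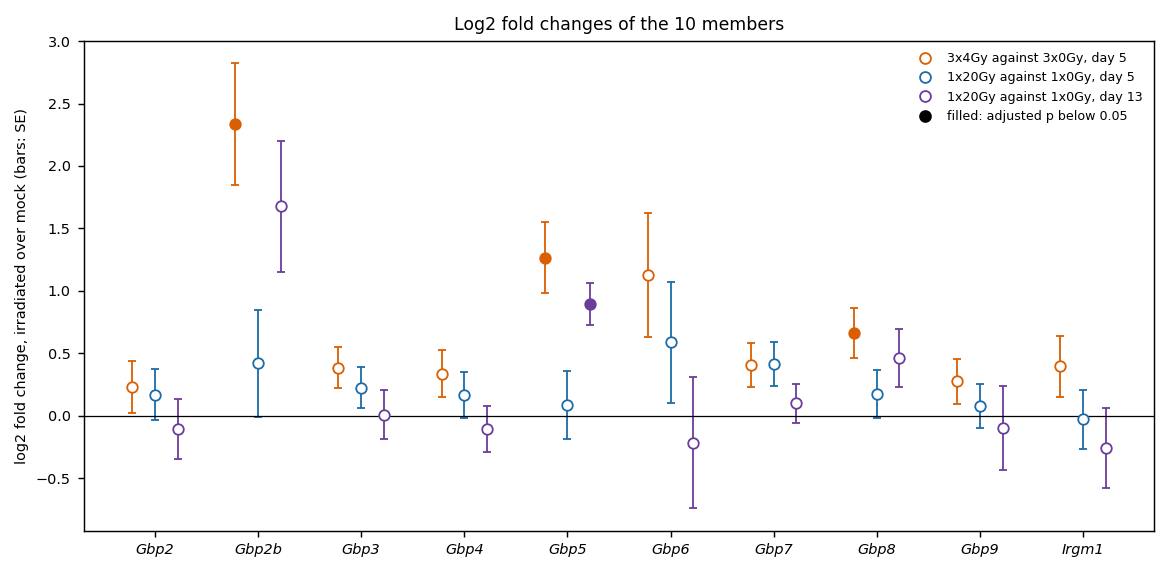
Log2 fold changes of the 10 genes (vertical axis, irradiated over mock) in the 3 comparisons; bars are 1 standard error and filled points have an adjusted p below 0.05. Gbp5 is filled after 3x4Gy (1.26) and at day 13 after 1x20Gy (0.90), Gbp2b (2.34) and Gbp8 (0.67) after 3x4Gy, and no gene at day 5 after 1x20Gy.

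The responses at day 5 were then compared with each other, since a call after 3x4Gy and none after 1x20Gy does not show a difference. No member was called in this contrast of differences, and 0% of the 12021 genes were (edgeR, with 715 genes and 2 members at an unadjusted p below 0.05). DESeq2 called 1 gene, which was not a member. For Gbp2b the 3x4Gy response was larger by 1.92 on the log2 scale (SE 0.64, 95% interval from 0.67 to 3.17, adjusted p = 0.735), and by 1.09 without 1x0Gy library 2. For Gbp5 it was larger by 1.17 (SE 0.39, 95% interval from 0.42 to 1.93, adjusted p = 0.735). These intervals are not adjusted for the number of genes, and as normal approximations they are narrower than the test used implies.

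The mock schedules entered these values. Between 3x0Gy and 1x0Gy edgeR called 0% of genes and no member, with 664 genes and 1 member at an unadjusted p below 0.05, and DESeq2 called 2 genes, neither a member. Gbp2b differed by -1.26 on the log2 scale (SE 0.52, adjusted p = 0.836), or -0.43 without 1x0Gy library 2, and Gbp5 by -0.50 (SE 0.30, adjusted p = 0.836). The other 8 differed by -0.20 to 0.20. In the contrast of the 1x20Gy responses at day 13 and day 5, 0.423% of 12061 genes and no member were called (edgeR, with 1 member at an unadjusted p below 0.05, and 0 members called by DESeq2). Gbp2b differed by 1.27 (SE 0.70, adjusted p = 0.470), or 0.45 without 1x0Gy library 2 of day 5, and Gbp5 by 0.83 (SE 0.34, adjusted p = 0.280).

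Levels of different genes are comparable only per length, so mean CPM was divided by GENCODE M21 exon length in kilobases. The annotation used for counting is not given. These lengths include exons where Gbp4, Gbp8 and Gbp9 overlap and stretches of Gbp6 that also occur elsewhere. The places of these genes in the order are therefore uncertain. In the 3x0Gy group Gbp2 stood highest with 47.0 CPM per kilobase, followed by Gbp7 with 27.9, Gbp3 with 17.1, Gbp8 with 10.4, Gbp4 with 7.13 and Gbp5 with 4.84. The ranges over libraries of these neighbours did not overlap. Irgm1 (4.24) and Gbp9 (4.16) were next, and overlapped with Gbp5 and with each other. Gbp2b (1.64) and Gbp6 (1.27) were lowest and overlapped.

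The order from Gbp2 and Gbp7 through Gbp3 to Gbp8 was the same in all 4 day 5 groups. After 3x4Gy the values were 55.1 for Gbp2, 36.9 for Gbp7, 22.3 for Gbp3, 16.6 for Gbp8, 11.7 for Gbp5, 9.0 for Gbp4, 8.60 for Gbp2b, 5.61 for Irgm1, 5.01 for Gbp9 and 2.83 for Gbp6, each overlapping with the next. Gbp2b moved from rank 9 of 10 in 3x0Gy to rank 7. After 1x20Gy at day 5 Gbp2 had 52.1 and Gbp7 33.1 CPM per kilobase. At day 13 Gbp2 and Gbp7 were close, with 35.5 and 33.0 in the mocks and 33.1 and 35.3 after 1x20Gy, and no neighbours were apart in the irradiated group.

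**Figure D3:**
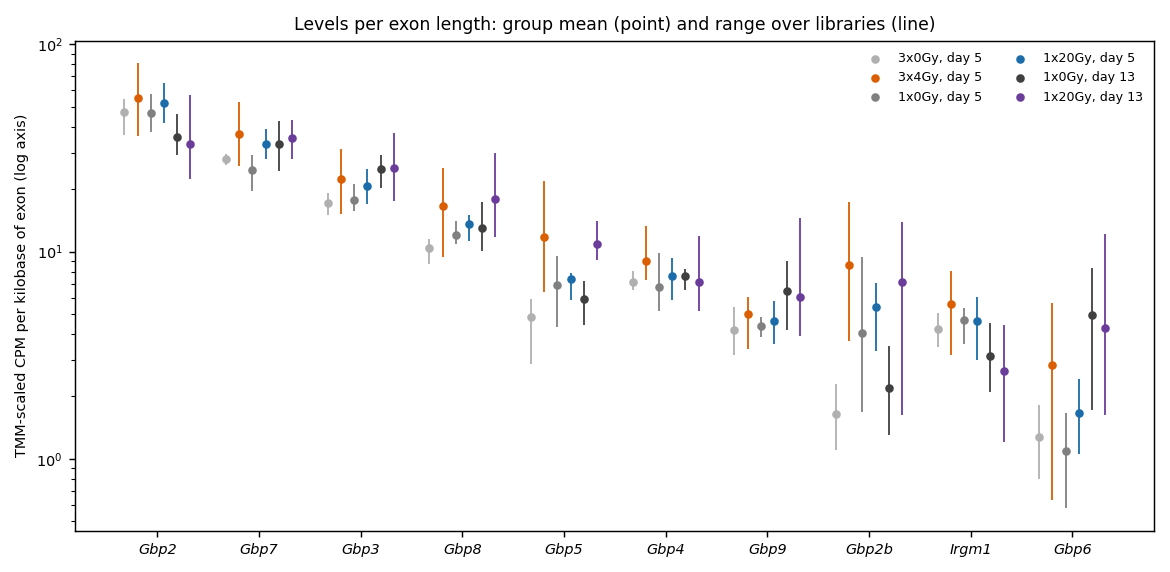
Level per exon length (TMM-scaled CPM per kilobase, log axis) of the 10 genes; points are group means and lines span the lowest to the highest library. Gbp2 and Gbp7 are the highest genes in every group, and Gbp2b and Gbp6 span the widest ranges.

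Within groups the 10 genes varied together across the 31 libraries. Each library's log2 CPM was taken relative to its group mean. Pearson's r between 2 members ran from 0.21 to 0.81 over the 45 pairs (median 0.61). With the mean of the other 9 members r was 0.87 for Gbp2, 0.82 for Gbp3, 0.68 for Gbp2b and 0.52 for Gbp5, the lowest. For Gbp5 it was 0.75 over the 20 day 5 libraries and 0.27 over the 11 day 13 libraries. Points share libraries, depth and scaling, and reads of overlapping or near-identical genes are hard to assign, so these are descriptions.

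The mean of the 10 members was also set beside 9583 other genes at a mean level of 5 CPM or more, again over 31 libraries. Among the genes of highest r were Myh10 (0.85), Ap3b1 (0.85), Ifih1 (0.84), Tceb3 (0.83), Tgs1 (0.82), Fam192a (0.82) and Parp14 (0.82). Without the 2 libraries farthest from the median, 3x4Gy library 2 and day 13 1x20Gy library 5, r was 0.80 for Myh10 and 0.79 for Ap3b1. Casp4 (0.80) and Cxcl9 (0.66) were also high, and Iigp1 had 0.44, Irgm2 0.28 and Cxcl10 0.11. For 4 genes the pooled value joined opposite signs on the 2 days. Ifng itself had r = 0.31 over the 20 day 5 libraries and -0.64 over the 11 day 13 libraries, Socs1 had 0.16 and -0.70, Irf1 0.33 and -0.35, and Igtp 0.23 and -0.50.

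Genes of the same pathway give the setting of these values. Beside the counts below, 5.2% of all genes were called higher after 3x4Gy, 3.6% after 1x20Gy at day 5 and 4.22% at day 13. As for the members, cell mixture and treatment cannot be told apart in any of the calls after 3x4Gy in these lists. Ifng, the gene of interferon gamma, was not called, with log2 fold changes of -0.17 after 3x4Gy (adjusted p = 0.808), 0.64 after 1x20Gy at day 5 (0.380) and 0.65 at day 13 (0.301). Its level was 14.1 ± 6.3 CPM after 3x4Gy and 16.3 ± 4.7 CPM after 3x0Gy.

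Of 13 tested genes of interferon gamma, its receptors and signalling, 1 rose after 3x4Gy, 1 after 1x20Gy at day 5 and 3 at day 13, and none fell. Jak2, a kinase of the receptor, rose by 0.80 on the log2 scale after 3x4Gy (edgeR adjusted p = 0.000146) and by 0.56 after 1x20Gy at day 5 (adjusted p = 0.00380). At day 13 Socs1, an inhibitor of the pathway, rose by 1.01 (adjusted p = 0.0380), Ifngr1, a receptor chain, by 0.95 (adjusted p = 0.00912), and Irf1, a transcription factor, by 0.51 (adjusted p = 0.0314). Beside them, NK cell markers summed to 136 to 339 CPM in the irradiated and 75.7 to 175 CPM in the mock libraries at day 13, with 3 of 5 called higher, and 2 of 6 T cell markers were called higher. Their part in these levels was not tested.

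Of 21 tested interferon gamma response genes other than GTPases, 5 rose and none fell after 3x4Gy, with a list median of 0.27. The largest were Slamf8 (1.37, adjusted p = 0.000883), Cd274, which encodes the checkpoint ligand PD-L1 (1.07, adjusted p = 0.0230), and Cd40, a costimulatory receptor (0.96, adjusted p = 0.00299). None of the 21 was called after 1x20Gy at day 5 (median 0.08). At day 13 Tap2, a peptide transporter (1.17, adjusted p = 0.0262), and Cd274 (0.68, adjusted p = 0.0266) rose and Il18bp, which binds interleukin 18, fell (-0.67, adjusted p = 0.0279). The chemokine genes Cxcl9 and Cxcl10 were not called in any of the 3, with 0.47 and -0.41 after 3x4Gy.

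Of 11 other interferon-inducible GTPases 7 were tested, and 0 were called higher in any of the 3 comparisons. After 3x4Gy none was called (median -0.17), and Iigp1, an effector of the immunity-related GTPases, fell after 1x20Gy by 0.90 at day 5 (adjusted p = 0.0106) and by 0.57 at day 13 (adjusted p = 0.0412), both on the log2 scale. At day 5 it had 224, 280.0, 229 and 286 CPM in the 1x0Gy libraries and between 107 and 160 CPM (median 142) after 1x20Gy, with no overlap. Irgm2 and Igtp, regulators related to Irgm1, were not called, with -0.21 and -0.02 after 3x4Gy.

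Of 22 tested type I interferon response genes none rose. Ifit1 fell after 3x4Gy (-0.60, adjusted p = 0.0437) and Oas2 after 1x20Gy at day 5 (-0.54, adjusted p = 0.0157), and none was called at day 13 (list median -0.35). Over all 12021 genes 852 were called lower after 3x4Gy and 586 after 1x20Gy at day 5, so single falls do not set this list apart. Of 14 inflammasome and pyroptosis genes 3 rose after 3x4Gy, namely Mefv, which encodes pyrin (1.36, adjusted p = 0.00246), Casp4, which encodes the caspase that senses bacterial lipopolysaccharide in the cytosol (0.66, adjusted p = 0.0396), and Ninj1, which acts in membrane rupture (0.48, adjusted p = 0.0409). Mefv also rose after 1x20Gy at day 5 (1.3, adjusted p = 0.00365), and no gene of this list was called at day 13.

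**Figure D4:**
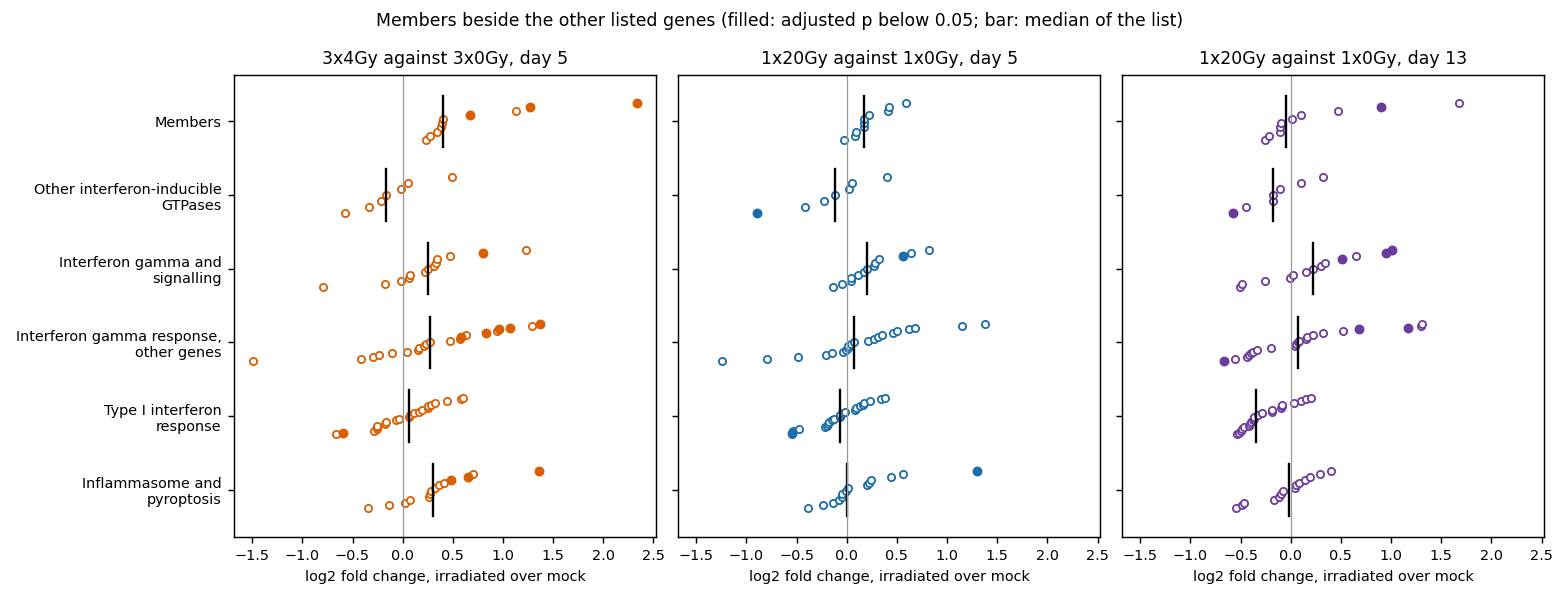
Log2 fold changes (horizontal axis, irradiated over mock) of the 10 members and of 5 other gene lists in the 3 comparisons; each point is a gene, filled where its adjusted p was below 0.05, and bars are list medians. After 3x4Gy the members (median 0.40) and 1 gene of the signalling list, 5 of the interferon gamma response list and 3 of the inflammasome list include filled points above 0, and the other GTPases (median -0.17) have none.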

How the data were processed

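Gene counts, 1 table per library for 31 libraries, were deposited by the authors. Per the submitters' processing notes, bcl2fastq 2.20.0.422, cutadapt 1.5, HISAT2 2.0.4 and HTSeq 0.9.1 were used with GRCm38 (mm10). The annotation, strand setting, read length and read filters are not given in the sources used here. The 5 summary lines of each table were left out. Of uniquely placed reads, 5.65% to 32.0% fell in no gene.

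Groups came from the sample titles. Counts were fitted in R 4.3.3 with edgeR 4.0.16 (TMM, filterByExpr at its defaults of 10 counts and a total of 15, two-sided quasi-likelihood test, Benjamini-Hochberg over all genes tested, called at an adjusted p below 0.05). The 20 day 5 libraries shared 1 fit, the 11 day 13 libraries had their own, and the contrast of days used all 31. The SE is the absolute log2 fold change divided by the square root of F. The 95% intervals are 1.96 SE wide on each side, a normal approximation that is narrower than the quasi-likelihood test implies. Log2 CPM used a prior count of 2. Tables were read and motifs, shared 50-base stretches and correlations computed in Python 3.11.15. The fits were tested on simulated data with known changes.

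Over 69 pairs of libraries within groups, chi-square divided by its degrees of freedom ran from 3.42 to 62.7, above the value of 1 for counting error alone. The members and gene lists were chosen with earlier results of these data known. All 10 members are given. Of the other lists, fixed names and at most 3 called genes of largest change per list and comparison are named, and for likeness the 8 genes of highest r. An item that these rules name is not reported here. Of 157 list entries, 156 matched a symbol (Gbp1 did not). Marker lists covered leukocytes, T, NK and B cells, macrophages, monocytes, neutrophils, dendritic cells, epithelial and tumour cells, fibroblasts and endothelial cells. Alternatives were DESeq2 1.42.0, upper quartile scaling, no filter or a minimum count of 50, only the groups compared, a replicate block, a covariate of epithelial and fibroblast markers, and leaving out each library.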

Additional observations from a re-analysis of the deposited data

Results flagged for a closer look

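Gbp5 had 38.6 CPM in 1x20Gy day 5 library 3, while the other 5 libraries of that group lay between 49.2 and 52.3 CPM. On the log2 CPM scale its gap to the nearest library was 0.797 of the group's range. It was the only value that stood apart in this way among 60 groups of member values tested, and chance sets about 1 in 20 groups apart.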

How the results depend on the processing

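Of 1190 log2 fold changes of single members under the alternatives, 1109 kept their direction and their side of the threshold, 12 lost a call, 9 gained one, 60 changed sign without a call in either fit, and no called value changed sign. With the covariate of epithelial and fibroblast markers, 0 members were called after 3x4Gy and 0 at day 13, and 166, 82 and 243 genes in the 3 comparisons with mock groups in place of 1477, 1019 and 891. In the contrast of days it called 18 genes, against 51 without it. With only the groups compared, 702 genes were called after 3x4Gy, and 1 member after 1x20Gy at day 5. With a minimum count of 50, 612 genes were called after 1x20Gy at day 5 and 30 in the contrast of days. At day 13 DESeq2, no filter on low counts and the replicate block each called 2 members. The contrast of regimens and that of the mocks called no gene by edgeR, but DESeq2 called 1 and 2 and no filter 1 and 1. In the contrast of days DESeq2 called 228, upper quartile scaling 5, no filter 85 and the replicate block 16. The cause of these shifts was not tested, other than that fewer libraries or genes entered some fits. Leaving out 1 library gave 2 to 6 members and 1132 to 1814 genes after 3x4Gy, 0 to 0 members and 556 to 1025 genes after 1x20Gy at day 5, and 1 to 2 members and 306 to 1263 genes at day 13. It gave 0 to 1 genes for the regimens and for the mocks and 1 to 111 for the days, with 0 members in each. The counts of genes moved by over 1.5 times without 1x0Gy library 3 (582) or 4 (556) at day 5 and 1x0Gy library 2 (588) or 3 (306) at day 13, and in the contrast of days without most of the libraries. The replicate block by title number called 2 members and 1223 genes after 3x4Gy, ending the call of Gbp8 (0.45, adjusted p = 0.125), and 0 members and 876 genes after 1x20Gy at day 5. At day 13 it called 2 members, Gbp5 and Gbp2b (1.42, adjusted p = 0.0090), and 1066 genes. Deviations of same-numbered libraries correlated between -0.255 and 0.401 over 12 pairs, so the numbers were not taken as a pairing. Depth limits Gbp2b and Gbp6 most, with as few as 9 and 14 counts in a library.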
